A study of Mus musculus with 6 samples.

Results

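The genes described here are the mouse zinc finger genes with symbols in the range Zfp900 to Zfp999. They were chosen by symbol alone, and the mRNA table held 45 of them among 21310 genes. The name tables list 65 such symbols, numbered from 930 to 996. The other 20 have no counts, and only promoter windows of some of them are used below. The set was put forward because of Zfp990, which stood out in the same mRNA comparison, so all ratios between the genotypes below are a description of the libraries. The samples do not bear on how young the genes are, so the genes are called by their number range.

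mRNA was measured in pachytene spermatocytes, germ cells in the long middle stage of meiotic prophase, from mouse testes. One group is wild type (WT, 1 library). The other is Alkbh1-/- (1 library), null mice in which exon 6 was deleted, with heterozygotes backcrossed to C57/BL6. The labels do not give ages or say how many animals were pooled. Poly(A) RNA from 1 µg (WT) and 1.6 µg (Alkbh1-/-) was read as 75 bp paired ends. The small RNA libraries of the same study give no value for a gene and were not used.

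Zinc finger proteins of the C2H2 type read DNA with rows of fingers, each held by a zinc ion. Many of the numbered mouse Zfp genes also encode a KRAB domain, which recruits the co-repressor Trim28 and, through it, the histone methyltransferase Setdb1 and heterochromatin proteins. This machinery silences transposable elements and some genes. KRAB zinc finger genes multiply by tandem duplication, so they lie in clusters of similar copies that can share reads. The sources used here do not say how reads matching several copies were counted, so the counts of close copies are uncertain.

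The 2 libraries held 8222671 (WT) and 10229260 (Alkbh1-/-) counts. Spermatocyte markers were plentiful in both, with Sycp1, a synaptonemal complex protein, at 122 CPM (reads relative to the library total, scaled for composition by TMM) in WT and 127 in Alkbh1-/-. The 12 measured spermatocyte markers summed to 12511 and 11513 CPM, and none was 1.5-fold apart. RNA of other testis cells differed between the libraries. In Alkbh1-/-, 10 of 11 Sertoli cell markers were lower by 1.5-fold or more, and the list summed to 2607 CPM in WT and 1287 in Alkbh1-/-, with no marker at 0. All 5 Leydig cell markers over 5 CPM were at least 1.5-fold higher, and the list of 6 summed to 69.8 and 140 CPM. Among 13 spermatid markers 6 were at least 1.5-fold higher and 0 lower, with sums of 1802 and 2225 CPM. Among all genes with 5 CPM or more in a library, 9.15% were higher and 9.69% lower by 1.5-fold or more. The 7 spermatogonial markers summed to 156 and 197 CPM, the 5 peritubular myoid markers to 14.3 and 25.3, and the 6 blood and endothelial markers to 11.9 and 10.3, with Hba-a1 at 0 counts in WT. The part of these differences in the results below was not tested. In such bulk RNA, fewer cells of a type and less RNA per cell cannot be told apart.

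Zfp990, the gene the set was built around, had 6 reads in WT and 178 in Alkbh1-/-. These were 0.738 and 17.2 CPM. The level was under 1 CPM in WT and over 5 CPM, the floor used for counts below, in Alkbh1-/-. The ratio was 23.3 (95% interval 10.5 to 64.5). This and all later intervals are exact (Clopper-Pearson) and cover counting error only, because with 1 library per genotype there is no replicate check and no test. Measured genes close by on chromosome 4 showed no such gap. Gm13212, on one side, had 25 and 30 reads (ratio 0.944, 0.537 to 1.67). Smarca5-ps, a pseudogene on the other side, had 77 and 101 (ratio 1.03, 0.760 to 1.41).

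**Figure D1:**
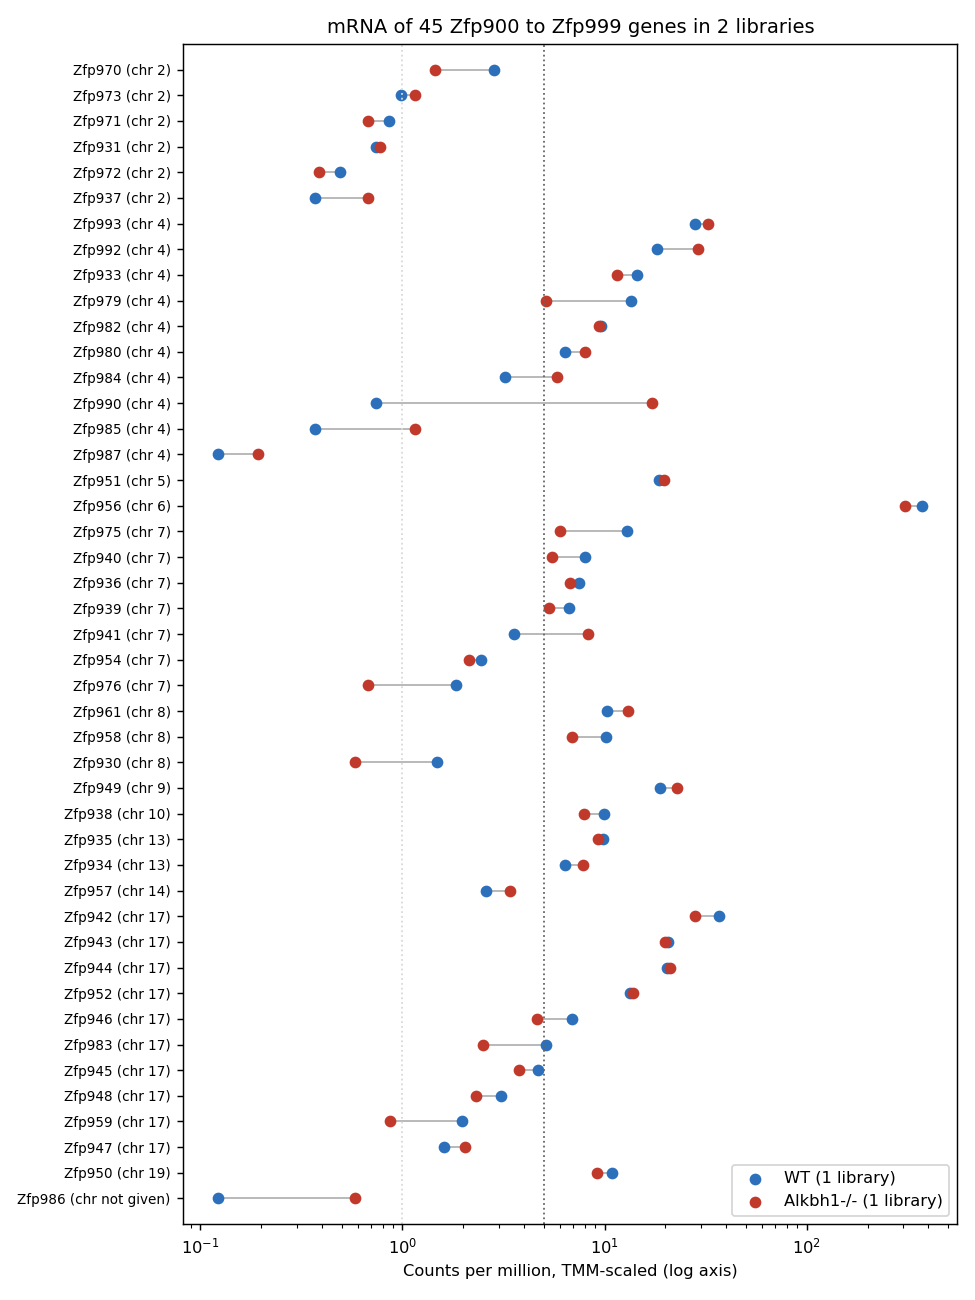
Level of each of the 45 genes in CPM (log axis), WT in blue and Alkbh1-/- in red, 1 library each, with dotted lines at 1 and 5 CPM. Zfp990 has the longest line, from 0.738 CPM in WT to 17.2 in Alkbh1-/-, while most pairs of points lie close together.

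Most of the 45 genes had few reads. Over both libraries the median of the 45 was 122 reads per gene, with 3 the fewest, and none was at 0 in either library. The deposited counts hold no gene at 0 in both libraries, so unread genes of the range may be missing from them. In the higher of its 2 libraries, 6 genes stayed under 1 CPM, 11 lay from 1 to under 5 CPM and 28 reached 5 CPM. The set took 0.0723% of all reads in WT (95% Wilson interval 0.0705 to 0.0741) and 0.0676% (0.0660 to 0.0692) in Alkbh1-/-. The 275 genes Zfp1 to Zfp899 took 0.926% in each library.

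Zfp956, on chromosome 6, held the most reads of any gene in the set. It had 3036 reads in WT and 3189 in Alkbh1-/-, which is 51.1% (49.8 to 52.4) and 46.1% (45.0 to 47.3) of the reads of the set. Its level was 373 CPM in WT and 308 in Alkbh1-/-, a ratio of 0.827 (0.786 to 0.869). The summed level of the set was 730 and 669 CPM (ratio 0.915, 0.884 to 0.948). Without Zfp956 it was 357 and 360 CPM (ratio 1.01, 0.960 to 1.06) and the interval included 1. Transcript lengths were not used here, so levels are compared within a gene and not between genes.

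Of the 28 genes with 5 CPM or more in a library, 2 were higher in Alkbh1-/- by 2-fold or more and 3 were lower (7.14% and 10.7%). Among all 12189 genes over that floor 2.63% were higher and 3.69% lower by the same rule. Among genes of 5 to 40 CPM, the range of all but Zfp956, the shares were 4.18% and 4.81%. The higher genes were Zfp990 and Zfp941, and the lower ones Zfp979, Zfp975 and Zfp983. At 1.5-fold 4 were higher and 3 lower, where 9.15% and 9.69% of all genes passed. Among the 27 genes of the set from 5 to 40 CPM these were 14.8% and 11.1%, close to the 13.0% and 12.9% of all genes in that range. Since Zfp990 was picked from this comparison, nothing is read from these shares.

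Zfp941, on chromosome 7, had 29 reads in WT and 86 in Alkbh1-/-. At 3.56 and 8.32 CPM its ratio was 2.33 (1.52 to 3.69). Its interval crosses 2-fold, unlike that of Zfp990. Zfp979, on chromosome 4, is also named Ssm1b, a strain-specific modifier of DNA methylation. It had 110 reads in WT and 53 in Alkbh1-/-, or 13.5 and 5.13 CPM. That is 2.64-fold lower in Alkbh1-/- (1.88 to 3.73), the lowest log2 value of the set at -1.25. Zfp975, on chromosome 7, had 105 and 62 reads, or 12.9 and 6.00 CPM (2.15-fold lower, 1.56 to 3.0). Zfp983, on chromosome 17, had 42 and 26 reads. At 5.16 CPM in WT it lay just over the floor of 5 CPM (2.05-fold lower, 1.23 to 3.49), while Zfp945 lay just under the floor at 4.67 CPM.

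**Figure D2:**
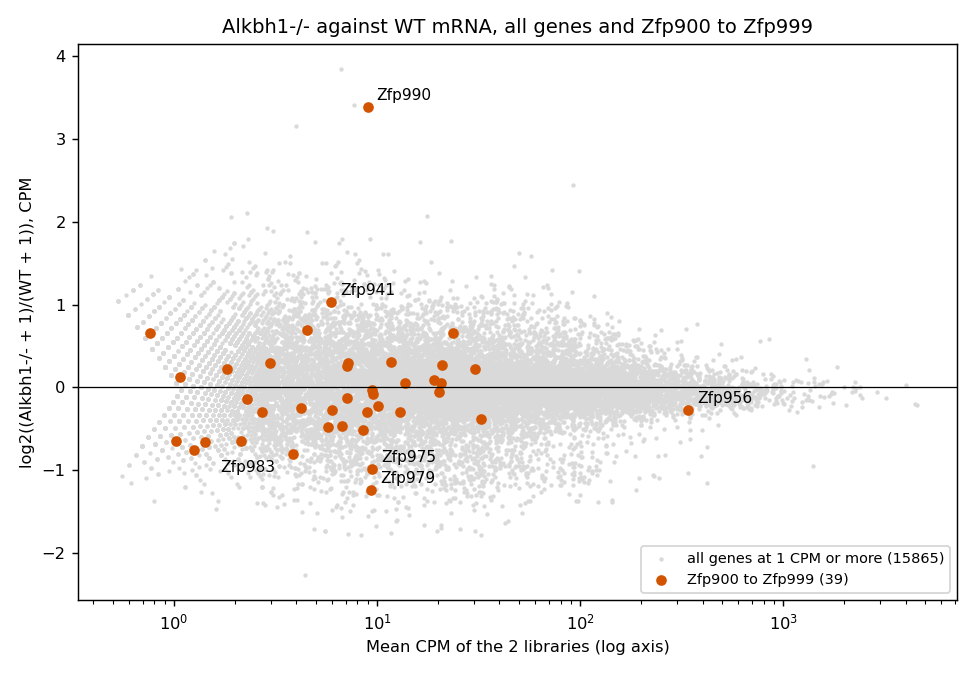
Mean CPM of the 2 libraries (log axis) against log2((Alkbh1-/- + 1)/(WT + 1)) for 15865 genes in grey and 39 genes of the set in orange, all at 1 CPM or more in a library. Zfp990 stands at 3.39 above the other 38, which lie between -1.25 and 1.03.

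The other well-read genes lay closer together. Zfp942 on chromosome 17 had 301 and 290 reads (37.0 CPM in WT, 28.0 in Alkbh1-/-; ratio 0.758, 0.643 to 0.894). Zfp943 and Zfp944, also on chromosome 17, had ratios of 0.960 (0.779 to 1.18) and 1.03 (0.841 to 1.27). Zfp949 on chromosome 9 stood at 1.21 (0.986 to 1.5), Zfp951 on chromosome 5 at 1.06 (0.857 to 1.32) and Zfp952 on chromosome 17 at 1.04 (0.805 to 1.35). For 18 of the 28 genes the interval included 1. It lay above 1 for 4 (Zfp990, Zfp941, Zfp984 and Zfp992) and below 1 for 6 (Zfp942, Zfp956, Zfp958, Zfp975, Zfp979 and Zfp983). The shares of all genes by these rules were not counted, so nothing is read from these numbers. The interval lay wholly above 2 for Zfp990 and wholly below 0.5 for no gene of the set. Among all genes over the floor, 0.468% and 0.919% met these last 2 rules.

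Across the 39 genes at 1 CPM or more the median log2((Alkbh1-/- + 1)/(WT + 1)) was -0.13, with the middle of the distribution between -0.43 and 0.24. All 15865 genes at that floor had a median of 0.00 (-0.23 to 0.27), and the 242 measured genes Zfp1 to Zfp899 had -0.01 (-0.20 to 0.19). At the floor of 5 CPM the medians lay closer together. They were -0.07 for the 28 genes of the set, -0.02 for all genes and -0.03 for Zfp1 to Zfp899. At 1 CPM or more, 16 genes of the set (41.0%) lay above 0 and 23 below, against 50.5% above 0 among all genes.

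**Figure D3:**
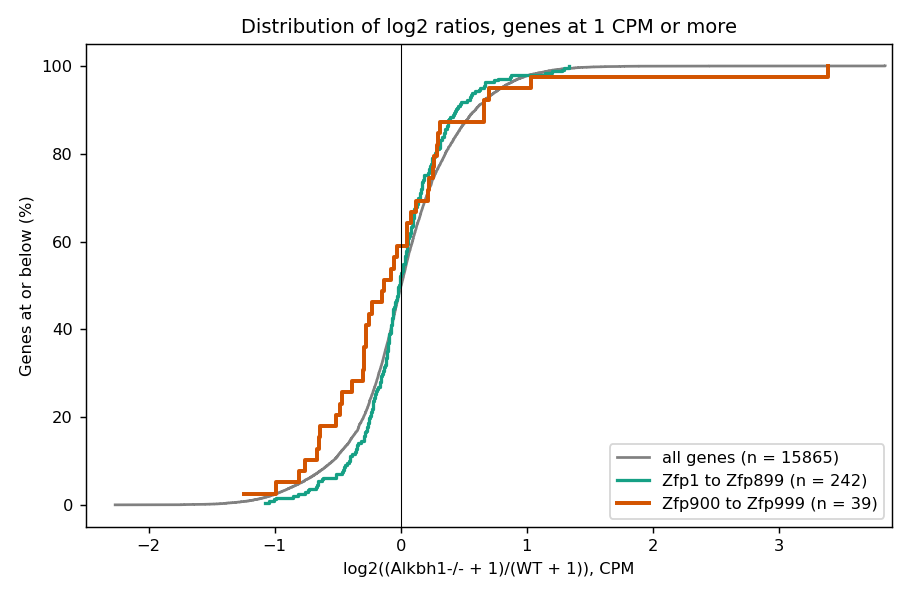
Cumulative share of genes (%) by log2((Alkbh1-/- + 1)/(WT + 1)) for genes at 1 CPM or more in a library, with all genes in grey, Zfp1 to Zfp899 in green and Zfp900 to Zfp999 in orange. The orange line runs left of the green and grey lines at the lower quartile (-0.43 against -0.20 and -0.23) and the median (-0.13 against -0.01 and 0.00). Its lowest value is -1.25, while all genes reach -2.26. A single far point of the orange line on the right is Zfp990.

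The genes on chromosome 4 lie in 1 stretch. Between Zfp990 and Zfp933, at its ends, the annotation lists 77 genes in order, and 14 of them belong to the set, of which 10 were in the counts. Of the 9 at 1 CPM or more, 6 had a log2 value above 0 and 3 below, with a median of 0.29, or 0.25 without Zfp990. The 1030 genes of all chromosome 4 at that floor had a median of 0.02. The summed level was 94.3 CPM in WT and 120 in Alkbh1-/- (ratio 1.27, 1.16 to 1.40), and without Zfp990 93.5 and 103 (ratio 1.10, 1.00 to 1.21). The genes of the set on other chromosomes had a median of -0.24 over 30 genes, with 10 above 0 and 20 below.

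Zfp992 had 147 reads in WT and 301 in Alkbh1-/- (18.1 and 29.1 CPM, ratio 1.61, 1.32 to 1.98). Its gap in CPM between the libraries was larger than that of the whole sum without Zfp990 (93.5 and 103 CPM). Zfp993 had 227 and 337 reads (27.9 and 32.6 CPM; ratio 1.17, 0.984 to 1.39). Zfp984 had 26 and 60 reads (3.20 and 5.80 CPM; ratio 1.82, 1.13 to 3.0). Each of these 3 was read more often in Alkbh1-/-, but the interval of Zfp993 included 1. Zfp980 stood at 52 and 83 reads (ratio 1.26, 0.878 to 1.81). Zfp982, which has been linked to the embryonic stem cell state, had 78 and 97 reads and nearly equal levels (9.59 and 9.38 CPM; ratio 0.979, 0.719 to 1.34). Zfp933, at the end of the stretch, had 117 and 119 reads (ratio 0.800, 0.615 to 1.04). Zfp985 had 3 and 12 reads and Zfp987 had 1 and 2, too few to place.

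**Figure D4:**
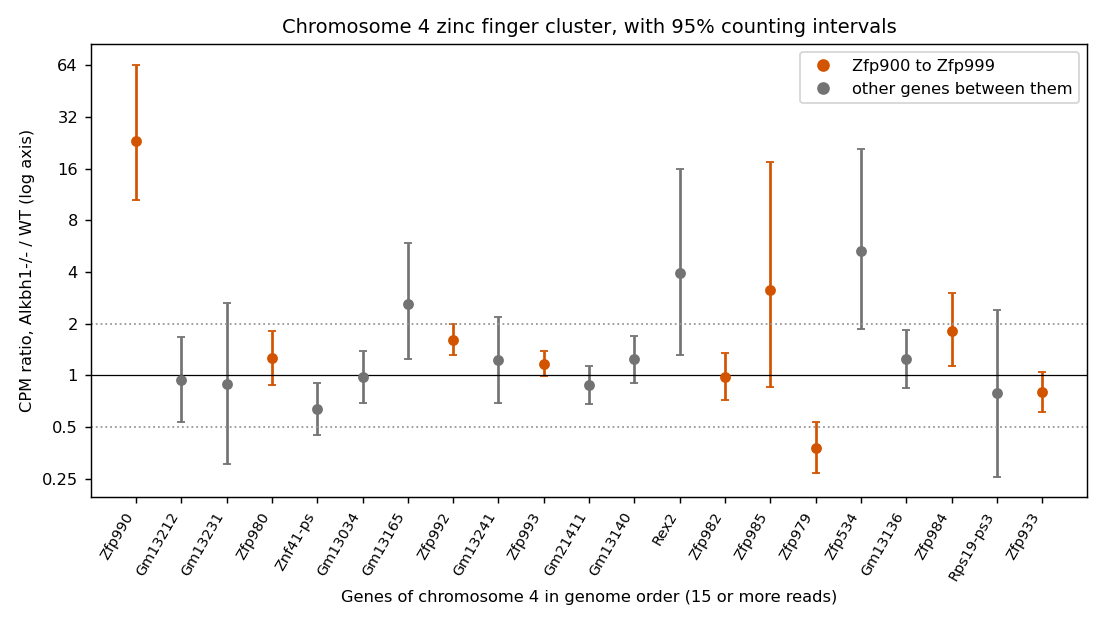
Ratio of CPM, Alkbh1-/- over WT (log axis), with 95% counting intervals, for genes of the chromosome 4 stretch with at least 15 reads, in genome order; the set in orange and other genes in grey, dotted lines at 2-fold. Zfp990 lies at 23.3, Zfp979 at 0.379, and the orange points between are spread on both sides of 1.

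The promoters of this stretch show how alike some of the copies are. No window was listed for Zfp990 or Zfp992, so their likeness to the others is not known. Promoter windows of 300 bases, from 250 before to 50 after the start, were listed in RefSeq (GRCm38.p6) for 55 genes of the set. The windows of Zfp979, Zfp980, Zfp982 and Zfp985 are printed because they are close copies, of which Zfp979 was lower in Alkbh1-/- while the intervals of Zfp980, Zfp982 and Zfp985 included 1. They lie at chr4:147642459-147642758 (minus strand), chr4:145670447-145670746 (plus), chr4:147492167-147492466 (plus, the closest of its 3 listed windows) and chr4:147553027-147553326 (plus). In Zfp979 capitals mark the 10 bases without an identical partner in all 3 others. In the others, capitals mark bases that differ from Zfp979 or have no partner in it.
Zfp979: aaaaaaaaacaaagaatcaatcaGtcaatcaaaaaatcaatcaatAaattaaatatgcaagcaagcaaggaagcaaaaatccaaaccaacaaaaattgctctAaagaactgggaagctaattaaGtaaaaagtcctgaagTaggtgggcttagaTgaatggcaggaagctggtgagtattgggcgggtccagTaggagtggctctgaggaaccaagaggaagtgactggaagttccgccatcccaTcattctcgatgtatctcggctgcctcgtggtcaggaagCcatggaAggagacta
Zfp980: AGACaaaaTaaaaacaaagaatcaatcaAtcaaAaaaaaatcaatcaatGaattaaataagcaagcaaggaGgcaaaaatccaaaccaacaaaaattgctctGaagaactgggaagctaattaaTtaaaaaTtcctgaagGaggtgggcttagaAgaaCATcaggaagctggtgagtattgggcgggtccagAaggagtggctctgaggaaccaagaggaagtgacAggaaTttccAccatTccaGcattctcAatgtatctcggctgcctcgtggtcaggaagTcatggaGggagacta
Zfp982: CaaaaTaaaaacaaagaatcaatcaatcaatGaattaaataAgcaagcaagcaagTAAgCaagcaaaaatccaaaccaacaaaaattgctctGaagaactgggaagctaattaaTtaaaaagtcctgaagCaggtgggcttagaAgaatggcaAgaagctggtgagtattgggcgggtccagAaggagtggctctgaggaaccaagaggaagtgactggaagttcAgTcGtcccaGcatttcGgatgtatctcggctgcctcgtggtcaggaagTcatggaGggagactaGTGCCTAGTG
Zfp985: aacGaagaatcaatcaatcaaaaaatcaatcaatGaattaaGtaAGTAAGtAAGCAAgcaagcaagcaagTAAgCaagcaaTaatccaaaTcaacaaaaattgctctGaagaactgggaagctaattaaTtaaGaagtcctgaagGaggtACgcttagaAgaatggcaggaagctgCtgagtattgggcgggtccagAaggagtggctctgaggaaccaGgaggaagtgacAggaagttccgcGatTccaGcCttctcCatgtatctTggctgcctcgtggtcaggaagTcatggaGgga

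Zfp980 shared 91.3% of its 300 bases with Zfp979, differing by 21 substitutions and 10 gap bases. Zfp982 shared 89.7% (14 substitutions, 34 gap bases) and Zfp985 86.7% (24 and 32). Against this likeness, Zfp979 had a log2 value of -1.25, Zfp982 of -0.03, Zfp980 of 0.29 and Zfp985 of 0.66, the last from 15 reads in all.

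Likeness of this size was found within chromosomes. Of 1485 pairs of genes of the set, 50 shared at least 80% of the promoter window, and all 50 lay on the same chromosome. Pairs on different chromosomes had a median of 59.0% and reached 74.7% at most. On chromosome 2 the 45 pairs had a median of 84.3%, and Zfp966 and Zfp967, neither in the counts, had identical windows. On chromosome 4 the 45 pairs had a median of 77.7%, on chromosome 7 the 36 pairs 59.0% and on chromosome 17 the 66 pairs 59.2%. The chromosome 4 pairs ranged from 51.3% to 91.3%. With the other measured genes there, Zfp993 shared 51.3% to 61.0% and Zfp933 55.7% to 60.3%.

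**Figure D5:**
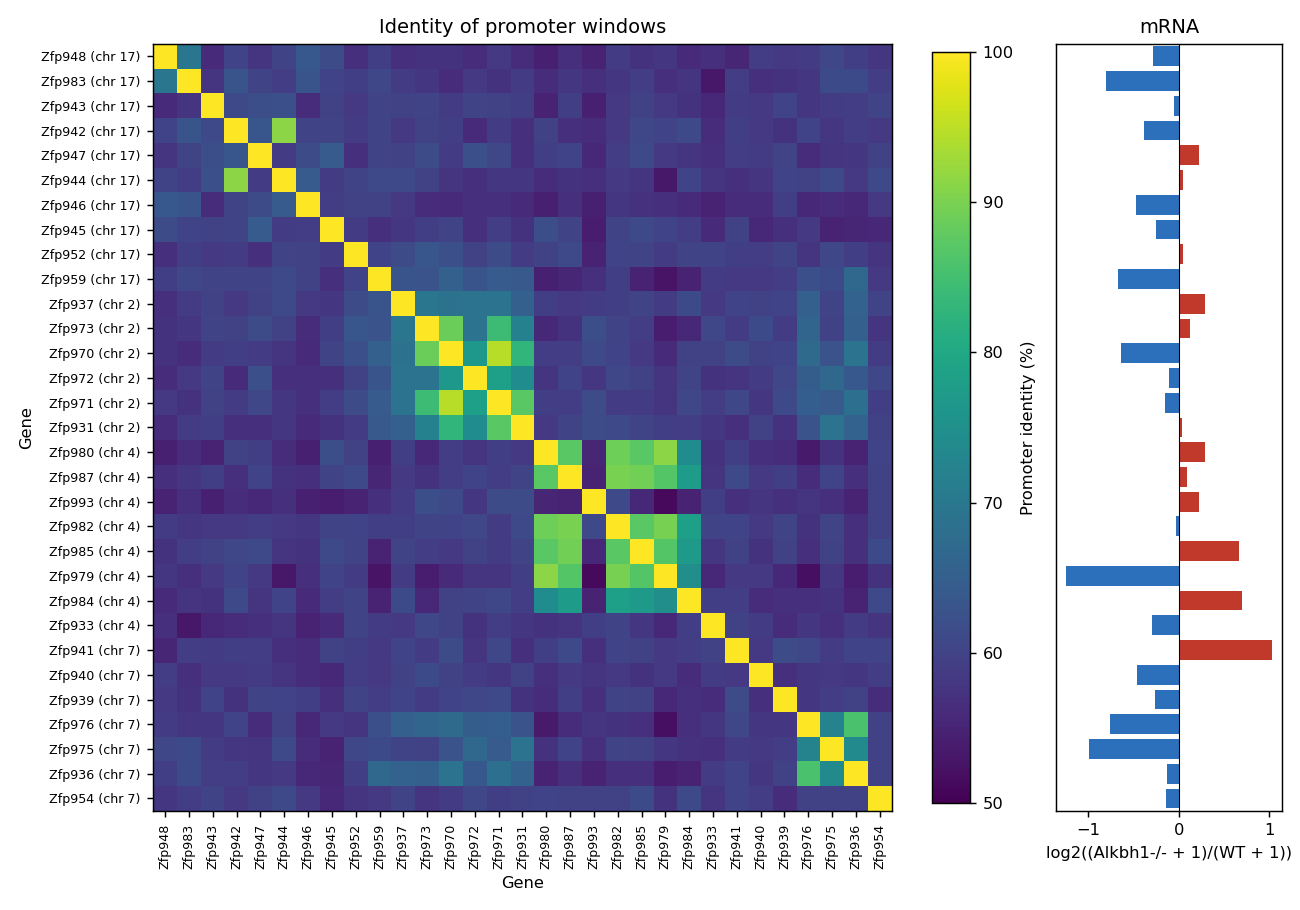
Left, identity of promoter windows (%, colour) for measured genes with a window on chromosomes 17, 2, 4 and 7, grouped by chromosome. Right, log2((Alkbh1-/- + 1)/(WT + 1)) of the same genes as bars from 0. Bright blocks mark similar promoters on chromosomes 2 and 4, where Zfp979 (-1.25) and Zfp980 (0.29) share 91.3% of bases.

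On chromosome 17, 10 genes were measured, all at 1 CPM or more, and 7 had a log2 value below 0 (median -0.27, from -0.81 for Zfp983 to 0.22 for Zfp947). Their summed level was 115 CPM in WT and 98.9 in Alkbh1-/- (ratio 0.863, 0.789 to 0.944). Zfp942 alone made up 37.0 CPM of this in WT and 28.0 in Alkbh1-/-. The sum without Zfp942 was not computed, so a drop across the chromosome is not read from it. Zfp942 and Zfp944, whose windows shared 91.3% of bases, stood at -0.39 and 0.05. On chromosome 7, 6 of 7 genes lay below 0 (median -0.27), with Zfp941 the exception at 1.03. Zfp976, near Zfp975 and also lower, had 15 and 7 reads (2.72-fold lower, 1.05 to 7.89). It was under the 5 CPM floor, at 1.84 CPM in WT and 0.677 in Alkbh1-/-. Zfp936, whose window shared 85.7% of bases with that of Zfp976, stood at -0.13. On chromosome 8 the 3 genes stood at -0.65 (Zfp930), -0.51 (Zfp958) and 0.31 (Zfp961).

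The chromosome 2 genes, with the most alike promoters, were hardly read. Their 6 measured genes summed to 51 reads in WT and 53 in Alkbh1-/-, or 6.27 and 5.13 CPM (ratio 0.818, 0.546 to 1.23). Zfp970 had the most, with 23 and 15 reads (ratio 0.513, 0.249 to 1.03), and Zfp973 had 8 and 12. No difference was detectable at this depth.

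The partners of KRAB zinc finger proteins differed little. The 24 of 25 listed genes that passed 5 CPM all lay within 1.5-fold, as did 81.2% of all genes over that floor. Their median log2 value was -0.01, and Suv39h1, at 1 read, did not pass. The listed genes were well read, with a median of 1786 reads over both libraries against 139 for all genes. Their counts therefore carry less counting error. Trim28, the shared co-repressor, stood at 772 CPM in WT against 759 in Alkbh1-/- (ratio 0.984, 0.952 to 1.02). Setdb1, which methylates histone H3 at silenced sites, had 161 and 144 CPM (ratio 0.893, 0.828 to 0.962). The highest was Pphln1, of a silencing complex, at 0.51 (ratio 1.44, 1.24 to 1.67), and the lowest were Dnmt3a, a DNA methyltransferase, and Atrx, a chromatin remodeller, each at -0.50.

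Zinc finger genes with a better known role gave a wider range, with fewer reads per gene (median 191 over both libraries). Of 18 found among the 19 listed, 12 passed 5 CPM, 1 was at least 2-fold higher and 0 lower, with a median of 0.16 over the 16 at 1 CPM or more. Among all genes over 5 CPM, 2.63% were higher and 3.69% lower. The medians at 1 CPM or more were 0.00 for all genes and -0.01 for Zfp1 to Zfp899. With 12 genes, nothing is read from these counts. Zfp819, a testis gene, had 33 reads in WT and 118 in Alkbh1-/- (4.06 and 11.4 CPM; ratio 2.81, 1.90 to 4.27). Zfp57, which keeps imprints methylated, had 11.1 and 18.2 CPM (ratio 1.64, 1.27 to 2.14). Zfp809, which silences retroviral DNA, had 18.3 and 17.1 (ratio 0.935, 0.747 to 1.17). Prdm9, which marks sites of meiotic recombination, was under the floor with 7 and 40 reads (ratio 4.50, 1.99 to 11.9). The lowest was Zfp90, with a log2 value of -0.39 (ratio 0.725, 0.477 to 1.10).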

How the data were processed

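For mRNA, the authors deposited raw counts of reads, as whole numbers by Ensembl gene, for 1 WT and 1 Alkbh1-/- library. CASAVA 1.3, Novoalign, TopHat, bedtools and mm9 are named, without their roles, in the submitters' processing notes; the sources do not give the strand use. Of 21310 identifiers 19848 matched a symbol. Chromosomes and gene order came from RefSeq on GRCm38.p6.

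Counts were scaled by TMM (edgeR 4.0.16, R 4.3.3) to CPM. Calls used the plain CPM ratio (2-fold, 5 CPM or more in a library), and log2 values a pseudocount of 1 CPM, which understates the change of low genes. With 1 library per genotype no test was made. The computation of the ratio intervals was checked on simulated counts with counting error only, which says nothing about differences between animals. Promoters were aligned globally with Biopython 1.88, and identity is the share of 300 bases, taken from the closest windows where a gene has several.

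Named were genes past 2-fold, the 10 with the highest mean CPM, list extremes and, chosen after their values were seen, others on chromosomes 2, 4, 7, 8 and 17. Members and lists were chosen with earlier results of these data known. Protein sequences were not analysed here. DESeq2 1.42.0 size factors, other pseudocounts, floors and folds were tried.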

Additional observations from a re-analysis of the deposited data

How the results depend on the processing

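The 2 higher and 3 lower genes were the counts with TMM, DESeq2 size factors or totals alone. With the ratio taken after adding 5 CPM there were 1 and 0, and after adding 0.5 CPM 2 and 2. Without a floor there were 4 and 6, with a floor of 20 CPM 0 and 0, and with a floor of 1 CPM 3 and 6. At 1.5-fold 4 were higher, on chromosomes other than that of Zfp990 1, and without Zfp990 1. Further rules were chosen after seeing the data: with the whole counting interval beyond 2-fold 1 was higher and 0 lower, and with the ratio taken after adding 1 CPM 1 was lower. The median of -0.13 was 0.05 with a floor of 20 CPM, which few genes pass; it lay between -0.24 and -0.07 in the other settings. The log2 value of Zfp990 was 1.95 with a pseudocount of 5 CPM and 3.39 to 3.84 otherwise. Scaling moved the median of all genes from 0.004 to at most 0.032. Depth limits genes under 5 CPM. No paired analysis was possible because each genotype had 1 mRNA library, and no library could be left out.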

Other observations

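Several genes between those of the set on chromosome 4 were also read more often in Alkbh1-/-; they were picked out after their values were seen, and all lay under 5 CPM. Zfp534 had 4 reads in WT and 27 in Alkbh1-/- (ratio 5.31, 1.85 to 20.9). Rex2, another zinc finger gene, had 4 and 20 (ratio 3.93, 1.32 to 15.8), and the non-coding Gm13165 had 10 and 33 (ratio 2.60, 1.25 to 5.91). Znf41-ps, a transcribed pseudogene, went the other way with 78 and 63 reads (ratio 0.636, 0.449 to 0.897). The 18 measured genes of the stretch outside the set summed to 57.4 CPM in WT and 60.7 in Alkbh1-/- (ratio 1.06, 0.937 to 1.20).

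Promoter composition of the set was described with 1 window per gene. The word GGGCGG, the core of the GC box, on either strand, was in 20 of 55 windows (36.4%), and in 35.9% of 27025 windows of all genes. It was in 46.4% of 252 windows of Zfp1 to Zfp899. By chromosome it was in 7 of 10 windows on 4, 7 of 12 on 17, 3 of 9 on 7 and 0 of 10 on 2. At least 80% of bases were shared by 20 of 45 pairs of windows on chromosome 4 and 26 of 45 on chromosome 2. Their windows are therefore not independent of each other. The site of MYB factors was searched with the word CAACTG, the word CAACGG, the word TAACTG and the word TAACGG, and at least 1 of them was on either strand of 12 windows of the set (21.8%) and of 28.2% of all. The median number of CpG was 8 in the set, 7 over all genes and 15 in 252 windows of Zfp1 to Zfp899.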
